A study of Homo sapiens with 12 samples.

Results

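The genes described here encode the SR proteins, the heterogeneous nuclear ribonucleoproteins (hnRNPs) and the SF3A and SF3B subunits, which together recognise exons and introns during splicing of pre-mRNA. They were chosen by name as the protein-coding genes whose symbols start with SRSF, HNRNP, SF3A or SF3B, which gave 47 of the 20056 protein-coding genes in the RefSeq table of GRCh38.p14. Of these members, 12 were SRSF genes, 26 were HNRNP genes and 9 were SF3A or SF3B genes. The data came from acRIP-seq, in which fragmented total RNA is precipitated with an antibody to N4-acetylcytidine (ac4C) and sequenced. The cells were SW620, an established human colorectal cancer line, and carried either a control hairpin (shControl, called control below) or a hairpin against NAT10 (shNAT10, called knockdown), the acetyltransferase that writes ac4C. Both hairpins were delivered by lentivirus and stable cells were selected with puromycin, so both groups had been through infection and selection. Each group had 3 immunoprecipitated libraries, each with its own list of called peaks, while the matched input libraries were not analysed here. The labels do not say which NAT10 hairpin was used or whether the 3 libraries of a group came from separate cultures, so every p-value below measures only the spread between these libraries, which may be technical.

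SR proteins carry RNA-recognition motifs and a domain rich in arginine and serine, bind enhancer sequences in exons and help recruit the spliceosome. hnRNPs coat nascent transcripts, often oppose SR proteins at splice sites, and also act in export, stability and translation of mRNA. SF3A and SF3B are the protein complexes of the U2 snRNP that hold it at the intron branch point. Many genes of these families control their own level through alternative exons that expose the transcript to decay.

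The peak lists held 18241, 22619 and 20063 peaks in the control libraries and 28752, 17877 and 19047 in the knockdown libraries (20308 ± 2199 against 21892 ± 5970, SD, n = 3 each). A peak was given to a gene where its midpoint lay within the gene span on the same strand, and 96.2 to 96.9% of each library's peaks fell in a protein-coding gene by this rule. The files give no read counts, so the sequencing depth is unknown, and a weaker peak from less of an mRNA and one from less ac4C per mRNA cannot be told apart. NAT10 itself had 1, 0 and 2 peaks in the control libraries and 2, 0 and 1 in the knockdown libraries, which is no measure of its mRNA level and does not check the knockdown. Of 10 markers of colorectal epithelium, 7 carried a peak, EPCAM, CDH1, KRT8, VIL1 and CDX2 in all 6 libraries, while KRT18, KRT20 and CDX1 had none. Of 7 markers of other cell types, VIM had a peak in all 6 libraries, CHGA in 4 and COL1A1 in 3, and COL1A2, PTPRC, CD3E and PECAM1 had none.

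Of the 47 members, 28 (59.6%) carried a peak in some library, 16 (34.0%) carried one in each of the 6, and 19 (40.4%) carried none. The corresponding shares over the 20056 genes were 60.9% for any library and 29.6% for every library. By family, 4 of 12 SRSF genes, 16 of 26 HNRNP genes and 8 of 9 SF3 genes carried a peak, and 3, 9 and 4 of them had one in all 6. The SRSF genes without a peak included the classical SR proteins SRSF1, SRSF2 and SRSF3, and further SRSF5, SRSF6, SRSF7, SRSF10 and SRSF12. The HNRNP genes without a peak were HNRNPA1 and HNRNPC, which encode core proteins of the hnRNP particle, the scaffold protein gene HNRNPU, HNRNPH2, and the copies HNRNPA1L2, HNRNPA1L3, HNRNPCL1, HNRNPCL2, HNRNPCL3 and HNRNPCL4. Among the SF3 genes, SF3B5, which encodes a small subunit of the SF3B core, had none.

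Members without a peak had shorter gene spans, with a median of 6348 bases, against 16461.5 bases for the 28 with a peak and 24238 bases for the 16 with a peak in all 6 libraries. The same order held over all protein-coding genes, where the median span was 13957.5 bases without a peak and 30959.5 bases with one. Several members also have processed copies elsewhere in the genome, to which their reads could be aligned, and how such reads were treated is not given in the sources used here. The gene table listed 75 pseudogenes named after HNRNPA1, 9 named after HNRNPC and 5 named after SRSF3, all genes without a peak. Of the 19 members without a peak, 11 had no pseudogene of that kind, but these include HNRNPA1L2, HNRNPA1L3, HNRNPCL1, HNRNPCL2, HNRNPCL3 and HNRNPCL4, which are themselves copies. Of the 16 members with a peak in all 6 libraries, 10 had at least 1. In total, 96 pseudogenes were listed for members without a peak, 31 for those with one in 1 to 5 libraries and 17 for those with one in all 6. HNRNPA1 alone had 75 of the 96. The median number per member ran the other way, at 0, 0.5 and 1 in the same order. HNRNPA3, with 17 pseudogenes, had a peak in 5 libraries. HNRNPA1, HNRNPA1L3, HNRNPCL3 and SRSF2 had no strand in the tables. On either strand, the span of SRSF2 held 1 peak, in knockdown library 1 and within the span of MFSD11, and the spans of the other 3 held none. The parts of gene length, pseudogene copies and expression level in these absences were not tested.

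Whether depletion of NAT10 lowered the number of ac4C peaks in splicing genes was asked first at the level of whole libraries. The control libraries held 47, 47 and 49 member peaks and the knockdown libraries 54, 49 and 50, a mean of 47.7 ± 1.15 against 51.0 ± 2.65 (SD, n = 3 each). The difference of 3.33 peaks was not separated from the spread between libraries (two-sided exact permutation p = 0.20, where 0.10 is the smallest that 3 against 3 can give). With each list shortened to its 17877 best-scored peaks, the length of the shortest list, the difference was 1 peak. The difference over full lists is a net value, with 11 members higher on average in the knockdown libraries, 6 lower and 11 equal. HNRNPUL1 had the largest rise, 2.67 peaks. Without it the members held 42, 40 and 41 peaks in the control and 45, 40 and 40 in the knockdown libraries (difference 0.667). Leaving out the member with the largest rise was bound to lower the difference. As a share of all peaks, members took 0.258, 0.208 and 0.244% in the control and 0.188, 0.274 and 0.263% in the knockdown libraries (exact p = 0.90). The lowest share, in knockdown library 1, was that of the library with the most peaks. Each control library had a peak in 22 members, and the knockdown libraries had one in 22, 21 and 23 (exact p = 1).

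The authors' score per peak ran from 50 to 3233.06, and exactly 3100 was held by 7.61 to 13.7% of a library's peaks, so it was used as a percentile within each library, with tied peaks sharing 1 percentile. Member peaks stood high in this ranking. Their median percentile was 78.3, 88.0 and 84.7 in the control libraries and 92.7, 81.0 and 84.8 in the knockdown libraries, where 50 is the median of all peaks by construction. Between the groups the medians overlapped (exact p = 0.60, n = 3 each). Scores of at least 3100 were held by 27.7, 44.7 and 42.9% of member peaks in the control libraries and by 55.6, 44.9 and 46.0% in the knockdown libraries. Over all peaks the shares were 7.85, 9.95 and 12.9% in the control and 14.1, 11.5 and 13.1% in the knockdown libraries. In every library, then, member peaks held such scores more often than peaks at large, and the knockdown libraries lay above the control libraries for members (38.4 ± 9.35 against 48.8 ± 5.86%, exact p = 0.10). The closest pair, control library 2 and knockdown library 2, differed little, and without control library 1 the difference between the means dropped from 10.4 to 5.05 percentage points (exact p = 0.40). This measure was chosen after the scores had been seen. Members differed widely in it. HNRNPM had 36 of 47 peaks at such scores and SF3B2 had 12 of 15, whereas HNRNPR had 0 of 14 and SF3A1 had 0 of 9. Median peak width was 169, 192 and 192 bases in the control and 196.5, 170 and 196.5 bases in the knockdown libraries for members (exact p = 0.50). Over all peaks it was 222, 201 and 223 bases and 189, 228 and 221 bases, so member peaks were the narrower by median in 5 libraries and the wider in knockdown library 1.

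**Figure D1:**
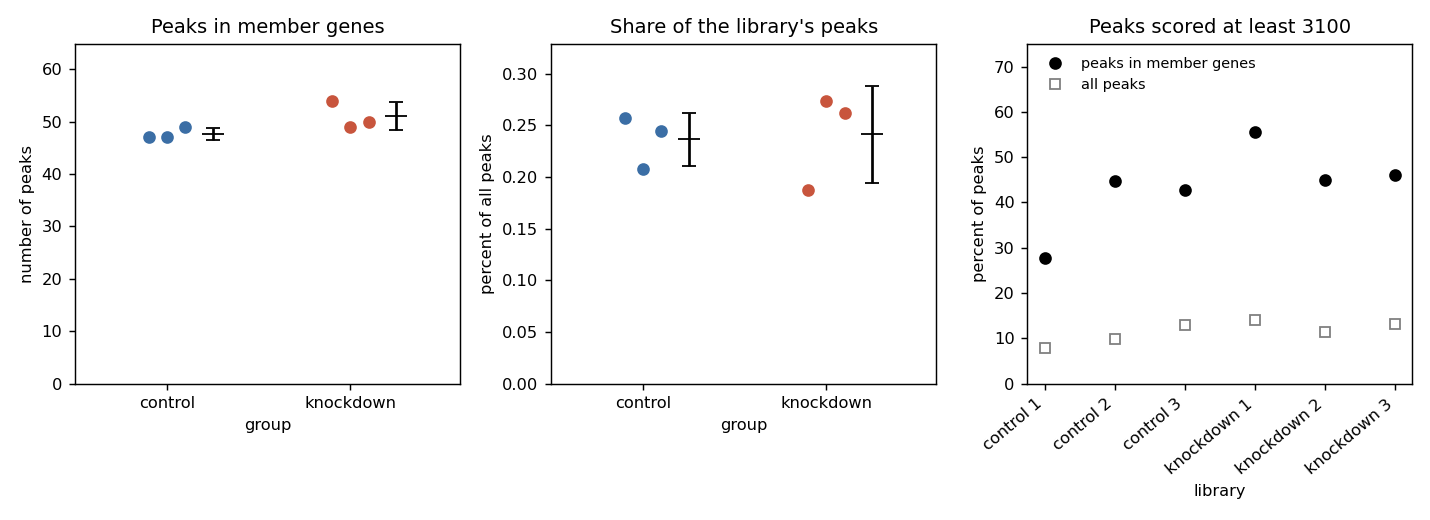
Left and middle: number of member peaks and their percent of the library's peaks, one point per library, with the mean and SD (n = 3) as bars beside the points, control in blue and knockdown in red. Right: percent of peaks scored at least 3100 in each library for member peaks (filled) and for all peaks (open squares), where members lie between 27.7 and 55.6% and all peaks between 7.85 and 14.1%.

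Peaks that overlapped by at least 1 base on the same strand were merged across libraries into 70 member regions, 50 to 3284 bases wide with a median of 169. Of these, 31 (44.3%) were listed in every library and 11 (15.7%) in a single one. Over the 41755 regions merged from all peaks, whether in a gene or not, the shares were 22.0 and 38.7%. Knockdown library 1, with the longest peak list, held 5 of the 11. Of the 59 member regions seen in more than 1 library, 49 (83.1%) had the same start and the same end in every library that listed them, against 60.6% over all regions. The share of member regions common to 2 libraries (the Jaccard index) averaged 0.712 within groups and 0.693 between groups, against 0.516 and 0.511 over all regions, with the highest value, 0.800, for knockdown libraries 2 and 3 and the lowest, 0.603, for control library 1 and knockdown library 1.

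In 9 of the 31 shared regions the score was at least 3100 in all 6 libraries, a share of 29.0% against 10.1% of all shared regions. They lay in 7 members: 3 in HNRNPM and 1 each in HNRNPAB, HNRNPL, HNRNPUL1, SF3B2, SRSF4 and SRSF9. Along the gene span, the first 10% held 20.4 to 24.5% of member peaks per library and the last 10% held 13.0 to 17.0%, against 24.1 to 30.3% and 13.1 to 15.7% over all genes. Of the 12 regions in the first 10%, 11 were listed in every library, as were 6 of the 9 in the last 10%.

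Of the 42 members in RefSeq's promoter table, with 57 annotated starts, 10 had a peak that overlapped the window from 250 bases before to 50 bases after a start. In 9 of them it did so in all 6 libraries. The first 30 transcribed bases at 6 of these starts are shown, for the genes with a start-site peak scored at least 3100 in every library and for the 2 SRSF genes with the most peaks. They are reference sequences of GRCh38.p14 on the gene's strand, with the bases under the peak in capitals.
HNRNPAB, chr5:178204533-178204562, + strand: aggcggcggcaccgcGCGGGACGGAGCTTG
HNRNPL, chr19:38849957-38849986, - strand: GAGGCGGGTTCTGCGCCGCCATGTCGCGGA
HNRNPUL1, chr19:41264372-41264401, + strand: ATTTTGAGCCGCTGCCGCCATTGGAGTGGG
SRSF9, chr12:120469719-120469748, - strand: CCCTTCGCTTCCGCTCCGCGTTCCCACAAT
SRSF4, chr1:29181871-29181900, - strand: GCGTGCTCGCGTACGTCGCCGGGGTTCGGC
SRSF11, chr1:70221380-70221409, + strand: agtgtcgtggttggagGCGAGGTGGGGCGG

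The start-site peaks of HNRNPL, HNRNPUL1, SRSF4 and SRSF9 began upstream of the annotated start in all 6 libraries, 41 bases before it in HNRNPUL1, 45 in SRSF9, 56 to 87 in SRSF4 and 274 to 347 in HNRNPL, whereas those of HNRNPAB and SRSF11 began at bases 16 and 17 of the transcript. The start reached in HNRNPL, HNRNPUL1 and SRSF11 was an internal one, since another annotated start of the same gene lay farther 5′ and was not reached. A C followed by any 2 bases and repeated (CNNCNNCNN), a pattern that has been linked with ac4C in mRNA, occurred in the first 50 transcribed bases at 7 of the 9 starts with a peak in all 6 libraries, and its reverse complement also at 7 of 9. The shares over the 22199 starts of protein-coding genes were 61.3% and 71.5%. Cytosine made up 16 to 44% of these bases at the 9 starts, with a median of 34% against 28% over all starts. The match is a description of the reference sequence and places no ac4C.

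Among the HNRNP genes, HNRNPUL1, which encodes an hnRNP U-like protein with a part in the DNA damage response, held the most peaks. It had 5, 7 and 8 peaks in the control libraries and 9, 9 and 10 in the knockdown libraries, so the groups did not overlap (6.67 against 9.33 on average, exact permutation p = 0.10 with n = 3 each). Of all 12210 genes with a peak, 1.56% had more peaks in every knockdown than in every control library, and 0.655% the reverse. HNRNPUL1 was the only member on the first side and HNRNPDL the only one on the second, among 28 members with a peak. After Benjamini-Hochberg adjustment over the 12210 genes, the smallest adjusted p was 1, and 0 genes passed 0.05 either before or after adjustment, as the exact test cannot go below 0.10 here.

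The peaks of HNRNPUL1 fell into 10 regions. One of them, chr19:41268078-41268345 on the + strand, 5521 bases from the 5′ end of the gene span, had no peak in any control library and a peak scored 3100 in each knockdown library, with the same borders in all 3. Regions listed in every knockdown and in no control library made up 0.819% of all 41755 regions, and this was 1 of 70 for the members (Fisher's exact p = 0.10 for the region alone). Every region that meets the calling rule has this same p-value, so it adds nothing to the call. In 5 further HNRNPUL1 regions more knockdown than control libraries had a peak, while 1 region near the 3′ end, scored at least 3100 wherever it was listed, was listed in 3 control but 2 knockdown libraries. The remaining 3 regions, at the 5′ end, at the internal start and at the 3′ end, had a peak in all 6 libraries.

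HNRNPM, whose product regulates alternative exons through GU-rich elements, had 9, 8 and 8 peaks in the control and 7, 8 and 7 in the knockdown libraries (8.33 against 7.33, exact p = 0.30). Of its 47 peaks, 36 (76.6%) were scored at least 3100, against 16 of 48 (33.3%) in HNRNPUL1. In 7 of its 9 regions a peak was present in all 6 libraries, and the smallest of the 9, 50 bases long, was listed in control libraries 1 and 3 only. HNRNPUL2, the paralog of HNRNPUL1, had 3, 4 and 4 peaks against 4, 4 and 4. HNRNPUL1, HNRNPM and HNRNPUL2 together held 118 of the 296 member peaks (39.9%).

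HNRNPDL encodes a relative of the AU-rich element binding protein HNRNPD and was the only member called as a whole gene. It had 1 peak in each control library, at percentiles 81.1, 77.1 and 59.6, and none in the knockdown libraries (Fisher's exact p = 0.10, fixed by the calling rule). Genes with a peak in every control and in no knockdown library were 0.336% of the 12210 tested, those with the reverse 0.36%, and the latter held no member. The call joined peaks in different places. The peak of control library 1 covered chr4:82422846-82424883 on the - strand, whereas those of control libraries 2 and 3 covered chr4:82424625-82426129 and chr4:82424752-82426129, so the first shared only a short stretch with the others. Regions listed in every control and in no knockdown library were 0.34% of all regions, and that of HNRNPDL was the 1 such member region. Counting a peak as present only where it spanned 50% or more of the region removed this call. Of HNRNPDL, 5 pseudogenes are listed.

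**Figure D2:**
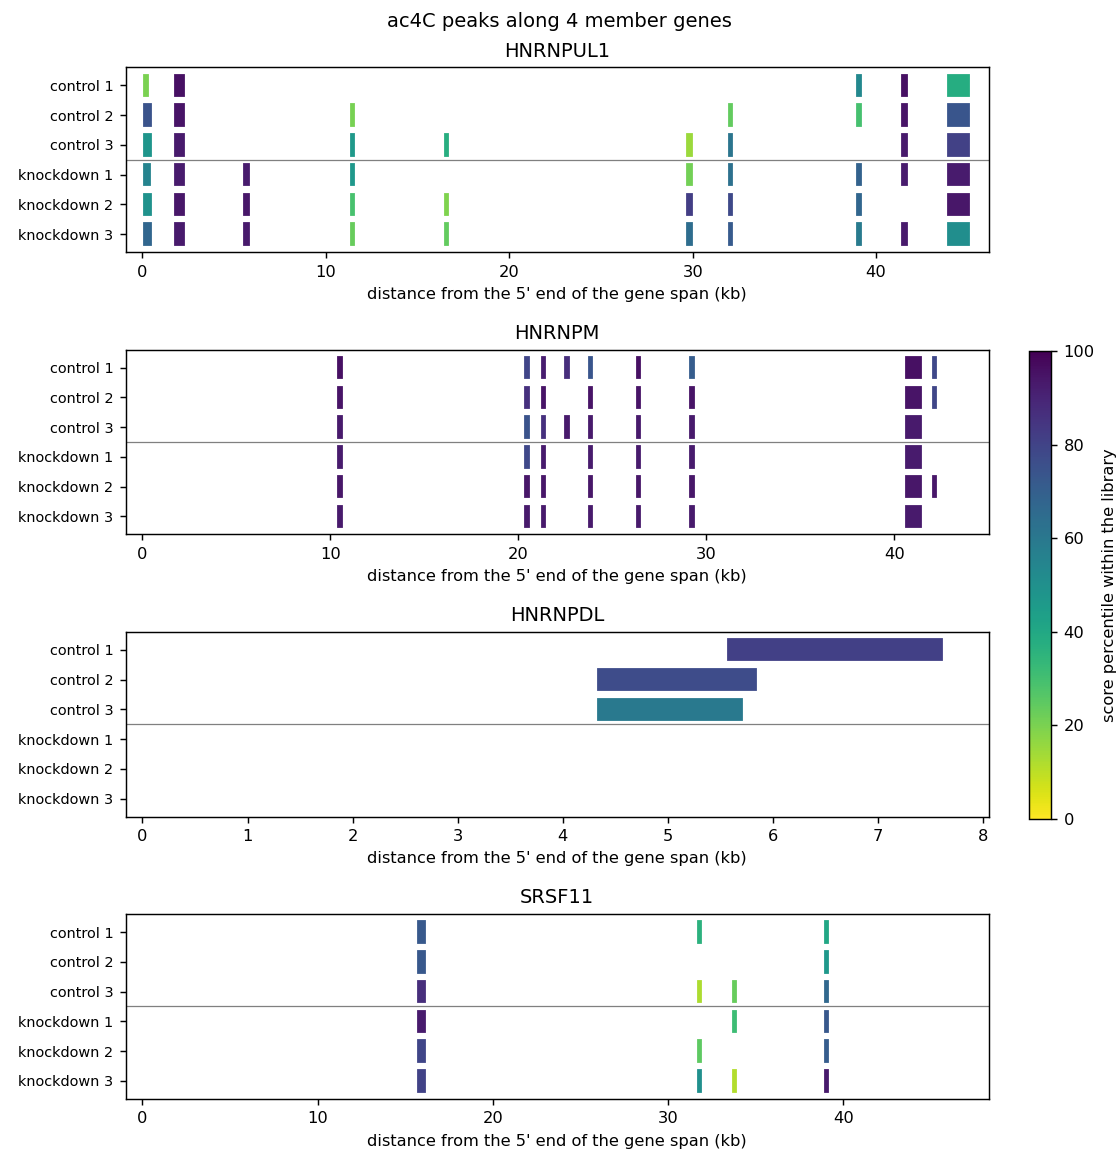
Peaks along HNRNPUL1, HNRNPM, HNRNPDL and SRSF11 in the 6 libraries (rows, control above and knockdown below the line), by distance from the 5′ end of the gene span in kb, with narrow peaks drawn slightly widened. Colour gives the score percentile within the library, dark for high, and the HNRNPUL1 region 5521 bases from the 5′ end is drawn in the 3 knockdown rows alone.

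The other HNRNP genes held 0 to 3 peaks per library. HNRNPF and HNRNPR each had 14 peaks in all and at least 2 in every library, while HNRNPH1 and HNRNPAB had exactly 1 in every library. HNRNPF and HNRNPH1 encode proteins that bind G tracts. HNRNPL, the binder of CA repeats, and its relative HNRNPLL had 1 peak in every library except knockdown library 1, which had 2 of each. HNRNPK, which encodes a poly(C)-binding protein, had no peak in the first library of either group and 1 peak in each of the other 4, all scored at least 3100. HNRNPA2B1, a core hnRNP gene, had 1 peak in control library 1 (percentile 83.7) and 1 at the same place in knockdown library 3 (percentile 51.8). HNRNPD, which encodes AUF1, had 2, 1 and 1 peaks in the control and 2, 0 and 1 in the knockdown libraries, all 7 scored at least 3100, and HNRNPA3 had 1, 1 and 0 against 1, 1 and 2. HNRNPA0 had 0, 0 and 1 peaks against 2, 1 and 1, and HNRNPH3 had 0, 1 and 1 against 0, 0 and 0. These presences and absences overlapped between the groups.

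Among the SRSF genes, SRSF11 had 3, 2 and 4 peaks in the control and 3, 3 and 4 in the knockdown libraries, SRSF4 had 3 in every library, SRSF9 had 1 in every library, and SRSF8 had 1 in control library 3 and 1 in knockdown library 1. SRSF4 kept a region scored at least 3100 in all 6 libraries near its 3′ end, and its start-site region ranged from percentile 19.6 in control library 1 to 94.8 in control library 2. The start-site region of SRSF4 also lay within the span of MECR, so 6 of the 296 member peaks belong to either gene. SRSF11 held the 1 shared member region whose percentile did not overlap between the groups, chr1:70244684-70244815 on the + strand, 38988 bases from the 5′ end. Its percentile was 40.3, 46.6 and 66.5 in the control libraries and 72.7, 70.7 and 93.2 in the knockdown libraries (51.2 ± 13.7 against 78.9 ± 12.4, exact permutation p = 0.10, n = 3 each). Of all 9195 regions with a peak in all 6 libraries, 6.98% were higher in every knockdown library and 4.05% higher in every control library, against 1 and 0 of the 31 member regions. The other shared region of SRSF11, at its internal start, had percentiles of 72.5, 72.7 and 86.8 against 92.7, 79.5 and 80.4, which overlapped.

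Over the 31 shared member regions, the mean percentile was higher in the knockdown libraries in 18 and lower in 13, with a median difference of 2.39 points against 0.704 over all shared regions. The 9 regions scored at least 3100 in every library all differed by the same -1.36 points, which is the shift of the tied score itself between the groups. Among the other 22 regions, 18 were higher and 4 lower in the knockdown libraries, with a median difference of 5.48 points and a range from -11.1 to 27.7. Leaving out the tied regions was chosen after the scores had been seen. In the same way, 4927 of 8262 shared regions over all peaks (59.6%) were higher, with a median difference of 1.91 points. Apart from the SRSF11 region, the values of the 2 groups overlapped in each of them.

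**Figure D3:**
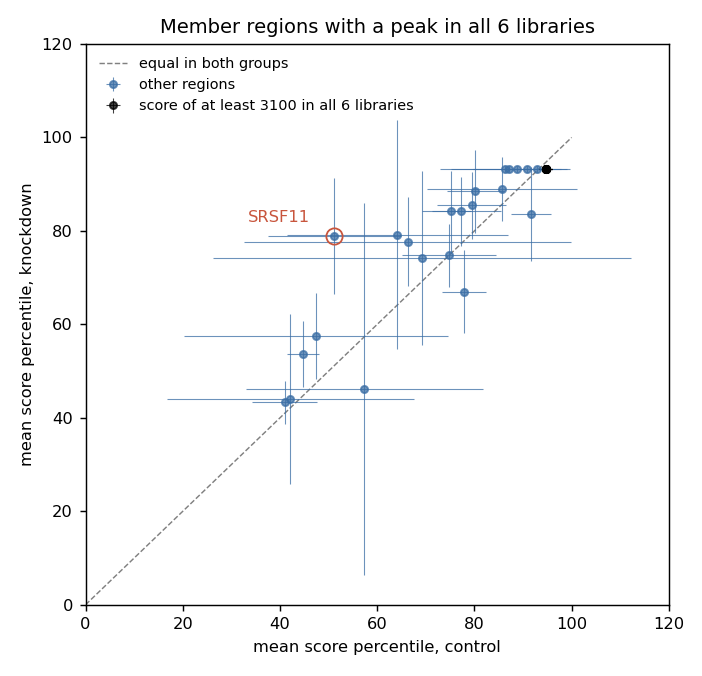
Mean score percentile in the control (horizontal) and knockdown libraries (vertical) of the 31 member regions with a peak in all 6 libraries, with SD bars (n = 3 each), some of which pass 100. The 9 regions scored at least 3100 in every library lie on 1 black point, and the circled SRSF11 region is the 1 region whose libraries did not overlap between groups.

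The SF3 genes showed peaks in 8 of 9 members and none that met a criterion for change. SF3B2 led with 2, 3 and 3 peaks in the control and 3, 3 and 1 in the knockdown libraries, and 12 of its 15 peaks were scored at least 3100. SF3A1 had 1, 1 and 2 against 2, 2 and 1, SF3A3 had 2, 1 and 1 against 2, 1 and 1, and SF3B4 had 1, 2 and 1 against 2, 1 and 1. SF3A2 had a peak in 5 libraries and lacked one in control library 3. SF3B1, which encodes the largest SF3B subunit and is recurrently mutated in myelodysplastic syndromes, had 2 peaks in control library 1, at percentiles 3.20 and 10.5, and none elsewhere. SF3B3 had 1 peak in each of knockdown libraries 2 and 3, and SF3B6, whose product touches the branch point, had 1 in knockdown library 1 only. By family, the knockdown minus control difference in peaks was 0.333 for SRSF (exact p = 1), 2.33 for HNRNP (exact p = 0.30) and 0.667 for SF3 (exact p = 0.90), with n = 3 libraries each.

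A list of 70 other splicing genes gave the setting for these counts. Of them, 63 (90%) carried a peak in some library and 37 (52.9%) in every library. Some peak was found in all 6 U1 snRNP genes, 8 of 9 partners of the U2 snRNP, 15 of 17 genes of the tri-snRNP and the activated complex and all 7 Sm protein genes. Peaks were also found in 7 of 9 SR-related genes, all 6 SR protein kinases and 14 of 16 hnRNP-like genes without the prefix. Their median span was 27202 bases for the 63 with a peak and 23457 bases for the 7 without. The corresponding medians for the members were 16461.5 and 6348 bases. The part of gene span in these counts was not tested. None of the 70 had a peak in every control and in no knockdown library, and 2 had the reverse, against 0.336 and 0.36% of the 12210 genes with a peak. EFTUD2, a GTPase of the U5 snRNP, had 0 peaks in each control library and 2, 2 and 1 in the knockdown libraries, and PTBP2, the neuronal polypyrimidine tract binding protein, had 0 peaks in each control library and 2, 1 and 1 in the knockdown libraries. PRPF3, of the U4/U6 snRNP, had 2 peaks in each control and 3 in each knockdown library. More peaks in every knockdown than in every control library were found in 1.56% of the 12210 genes, and the reverse in 0.655%. Other genes leaned to the control libraries with overlap between the groups, such as RBM39 (2, 1 and 2 against 1, 0 and 0) and DHX8 (1, 0 and 2 against 0, 0 and 0).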

How the data were processed

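Peak lists of the 6 immunoprecipitated libraries were used as the authors deposited them, 1 list per library, restricted to mRNA, with position, strand and a score per peak. Peak names in the files carry the prefix of the MACS peak caller, and the submitters' processing notes name GRCh38. The aligner, its treatment of reads with several matches, the caller's version and settings, and the meaning of the deposited score are not given in the sources used here. Because scores of different libraries are not on a stated common scale, each was turned into a percentile within its library. No read counts were given.

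Gene spans came from the RefSeq table of GRCh38.p14. Strand was taken from RefSeq's promoter table for 15843 genes, and for 2311 further genes, SF3B3 among them, from the majority of their peaks that lay in no gene of known strand. For 1902 genes no strand was set. Of peaks in the span of a gene of known strand, 96.9% lay on its strand. Peaks were assigned by midpoint and merged across libraries at 1 shared base on the same strand. A gene or region was called where it had a peak in 3 libraries of a group but in 0 of the other group. A peak number or percentile was called where the groups did not overlap. Single values were compared with two-sided exact permutation tests, and presence with Fisher's exact test. Named were all called members, the 3 members with most peaks in the SRSF, HNRNP and SF3 groups, members without a peak, and SRSF1, SRSF2, SRSF3, HNRNPA1, HNRNPA2B1, HNRNPC, HNRNPK and SF3B1, while the rest were named as examples. Members, lists of related genes and markers were chosen with earlier results of these data known. Assignment, merging and calling were tested on simulated lists, in which 200 of 200 planted regions among 41755 were recovered. Planted regions lay in every library of one group and in none of the other, with only their starts moved. Recovery was thus close to assured and checks the code alone, and false calls were not counted. Python 3.11.15, numpy 2.4.6, pandas 2.3.3 and scipy 1.17.1 were used.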

Additional observations from a re-analysis of the deposited data

How the results depend on the processing

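Alternatives were the upper 50% of each list by score, an equal number of highest-scored peaks per library, strand ignored, assignment by 1 base of overlap, peaks in 1 gene only, each library left out, and a replicate block. Under all of them, the difference in member peaks per library stayed above 0 (1.83 to 4.33 with 1 library left out). With so few libraries no exact p can fall under 0.10, so the p-values cannot tell these settings apart at a lower threshold. The difference in the members' share of peaks turned to -0.00947 percentage points without control library 2, -0.0114 without knockdown library 2 and -0.00561 without knockdown library 3, within a range of -0.0114 to 0.0317. The difference in median percentile (2.53) turned to -0.155 without control library 1 and -0.742 without knockdown library 1 (range -0.742 to 5.14). That in median width (3.33 bases) turned to -4.33 without control library 1 and -1.08 without knockdown library 1 or 3 (range -4.33 to 12.2). The share scored at least 3100 differed by 5.05 to 13.6 points with 1 library left out, and the number of members with a peak by -0.5 to 0.5.

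Calls at gene level numbered 1 to 2 with 1 library left out. HNRNPDL was called in each case, joined by HNRNPH3 without control library 1, HNRNPA0 without control library 3 and SF3B3 without knockdown library 1. Calling at 2 or more libraries' difference, a looser rule for any gene, returned 4 genes and 7 regions instead of 1 and 2. Of these, 2 genes and 3 regions leaned to the control, and 2 genes and 4 regions to the knockdown. Called regions numbered 2 to 4 with 1 library left out and 1 when peaks had to cover 50% of the region. The 1 shifted shared region became 0 in the upper 50% of each list, 3 with the deposited score, and 3 to 15 with 1 library left out, where 2 libraries face 3 and a lack of overlap needs fewer coincidences. For none of these alternative settings is the share over all genes or regions given here. The counts therefore describe the settings and are no result about the members.

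With the replicate number as a replicate block (sign-flip test over 3 pairs, smallest p 0.25), the difference in member peaks remained 3.33 (exact p = 0.25). Correlations of same-numbered libraries' deviations were 0.0295, 0.00234 and 0.0318, so the numbers were not taken to pair libraries. Read depth is unknown, so absence of a peak cannot be told from too few reads.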

Other observations

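Peaks on the strand opposite to a member were few. The span of SF3A1 held a peak on the + strand in all 6 libraries, at chr22:30356635-30357132, within the span of CCDC157, whose peak it was taken to be. Single peaks on the opposite strand lay in the span of SRSF9 in control library 1 (within GATC) and in that of SF3A2 in control library 1 (within no gene on that strand).

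Per 10 kb of gene span and averaged over the 6 libraries, SF3B4 had the highest peak density of the 28 members with a peak, 2.97, and SF3B3 the lowest, 0.0619, with a median of 0.686. Only 4 of the 28 members, HNRNPAB, HNRNPH1, SRSF4 and SRSF9, had the same number of peaks in every library.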
